A study of Mus musculus with 4 samples.

Results

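The nuclear genes of the mitochondrial respiratory chain and ATP synthase are described here in cultured mouse 3T3-L1 preadipocytes, a fibroblast line that turns into fat cells when given an adipogenic cocktail. Members are all genes whose mouse symbol begins with Nduf, Uqcr, Cox4 to Cox8 or Atp5, together with Sdha, Sdhb, Sdhc and Sdhd. The rule uses names alone and no measured value. It matched 115 genes of the reference gene table, of which 93 had a probe on the array, out of 20956 genes with a named probe. The 22 matches without a probe are 19 pseudogenes and 3 other genes. By name, 38 members belong to complex I, 8 are complex I assembly factors (Ndufaf genes), 4 belong to complex II, 8 to complex III, 18 to complex IV and 17 to complex V. Ndufa4 and Ndufa4l2 are counted with complex I by name, although Ndufa4 is now known as a subunit of complex IV.

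The study hybridised total RNA from 4 cultures to Agilent 1-colour arrays, 1 culture per array. The groups were control cells at day 0, lamp2a knockdown cells at day 0, control cells at day 2 and lamp2a knockdown cells at day 2. Day 0 cells were confluent and had grown in medium with 10% serum. Day 2 cells had then been kept in the same medium to which insulin (160 nM), dexamethasone (250 nM) and the phosphodiesterase inhibitor isobutylmethylxanthine (0.5 mM) were added. Control and knockdown cells received the same media, and day 2 is the start of differentiation rather than a mature fat cell. How the knockdown was made and what the control cells carried are not given in the sources used here. Lamp2a, a product of the gene Lamp2, is the receptor of chaperone-mediated autophagy on the lysosome.

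The respiratory chain passes electrons from NADH, through complex I, and from succinate, through complex II, by way of ubiquinone to complex III, cytochrome c and the oxygen-consuming complex IV. Complexes I, III and IV pump protons, and complex V uses the proton gradient to make ATP. Most subunits are encoded in the nucleus and imported, a few are encoded in the mitochondrial genome, and fat cell differentiation is known for an expansion of mitochondria. Several complex IV subunits also exist as alternative isoforms restricted to muscle, heart, testis or low-oxygen conditions.

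Signals are given as multiples of the 75th percentile of the same array, called the normalised signal, and differences as log2 ratios of that signal. With 1 array per group no replicate spread exists within a group, no test was run, and genes at least 2-fold apart are called. The only error measured is that between repeat spots of a probe on the same arrays. Its SD for a log2 ratio was 0.054 for knockdown against control at day 0, 0.0355 at day 2, 0.0725 for day 2 against day 0 in control cells and 0.0665 in knockdown cells, for probes of bright genes. These SDs are medians over 227 probes printed 10 times, while 92 of the 93 members had 1 spot per array. The error leaves out the spread between cultures. Bright genes are the 11394 with a mean signal above that of 95% of the olfactory receptor genes, which these cells are taken not to express. Of the members, 89 were bright and 78 were among the brightest 20% of all genes, while Ndufa4l2, Cox7b2, Cox8b and Cox8c were dim.

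The libraries stood apart in several respects. The control day 0 array came from a slide of its own, and the other arrays shared another slide, and in knockdown against control at day 0 and the control time course the slide cannot be told apart from the group. Between 67.4% and 88.6% of spots were well above background, lowest on the control day 0 array, and the median signal of olfactory receptor genes was lowest there too, at 11.2 against 23.6 to 39.8. The Lamp2 probe NM_001017959 read 4.13-fold (day 0) and 3.51-fold (day 2) less in knockdown cells, and the probe NM_010685 read 1.29-fold and 1.08-fold less. Which splice form each probe reads was not worked out. All of 9 fibroblast and preadipocyte markers were well above background on every array, with summed normalised signals of 1118 (control) and 1120 (knockdown) at day 0 and of 1040 (control) and 874 (knockdown) at day 2. Every series of values on the arrays below follows that order.

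Many nuclear respiratory genes are known to carry binding motifs of the transcription factors NRF1 and GABPA, an ETS family factor, close to their start. RefSeq windows of 250 bases upstream of the start (GRCm38.p6) were held for 76 members, in 81 windows. The NRF1 core, searched on either strand with either pyrimidine at its variable base, lay in 8 of the 81 windows (9.88%) against 1.83% of all 32851 windows. That form of the motif was chosen after a first search that allowed a single letter there. The ETS core CCGGAAG, on either strand, lay in 14 (17.3%) against 6.91%. The YY1 core AAGATGGC lay in 1 (1.23%) against 1.56%, the CCAAT box in 35 (43.2%) against 33.8%, and the GC box GGGCGG in 31 (38.3%) against 32.7%, each on either strand. The windows of Cox6a1, Cox6b1, Cox6b2, Uqcrh and Atp5pb are shown because the results below turn on these genes, or on the isoform they are paired with. Capitals mark matches to the 5 motifs, and no base lies in more than 1 motif. The windows lie on the minus strand, at chr5:115348959-115349208, chr7:30626115-30626364, chr7:4753095-4753344, chr4:116075071-116075320 and chr3:105959264-105959513, in that order, each written 5′ to 3′ toward the start.
Cox6a1: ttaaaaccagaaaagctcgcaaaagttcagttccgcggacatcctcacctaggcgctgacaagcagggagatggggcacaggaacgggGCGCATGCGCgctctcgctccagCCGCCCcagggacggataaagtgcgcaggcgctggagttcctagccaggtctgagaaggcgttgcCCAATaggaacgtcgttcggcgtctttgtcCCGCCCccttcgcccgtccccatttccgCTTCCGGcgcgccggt
Cox6b1: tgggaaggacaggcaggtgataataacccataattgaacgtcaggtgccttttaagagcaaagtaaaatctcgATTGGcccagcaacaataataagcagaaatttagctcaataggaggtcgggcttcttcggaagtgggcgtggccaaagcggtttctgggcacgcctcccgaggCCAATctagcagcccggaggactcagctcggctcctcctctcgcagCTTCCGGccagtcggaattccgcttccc
Cox6b2: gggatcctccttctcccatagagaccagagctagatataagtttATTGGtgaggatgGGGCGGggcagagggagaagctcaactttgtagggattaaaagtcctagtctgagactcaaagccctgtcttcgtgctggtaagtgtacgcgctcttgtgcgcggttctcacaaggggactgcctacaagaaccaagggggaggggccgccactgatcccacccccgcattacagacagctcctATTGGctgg
Uqcrh: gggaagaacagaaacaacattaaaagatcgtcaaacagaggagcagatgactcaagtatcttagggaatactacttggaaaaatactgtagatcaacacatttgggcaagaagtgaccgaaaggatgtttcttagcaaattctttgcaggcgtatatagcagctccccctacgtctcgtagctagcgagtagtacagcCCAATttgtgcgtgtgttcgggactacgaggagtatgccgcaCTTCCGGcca
Atp5pb: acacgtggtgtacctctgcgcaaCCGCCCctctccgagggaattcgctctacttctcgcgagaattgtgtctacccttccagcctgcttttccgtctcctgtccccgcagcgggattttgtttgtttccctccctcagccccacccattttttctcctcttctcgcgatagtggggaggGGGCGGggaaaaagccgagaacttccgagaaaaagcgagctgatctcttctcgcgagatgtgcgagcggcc
The Cox6a1 window holds the NRF1 core, the ETS core on the reverse strand, a CCAAT box and GC boxes. The Cox6b1 and Uqcrh windows hold the ETS core and CCAAT boxes. The window of Cox6b2, the testis isoform, holds CCAAT boxes and a GC box only, and that of Atp5pb GC boxes only. A match describes the letters of the window and is not a measured binding site.

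The first question was how the respiratory chain of knockdown cells compared with that of control cells before induction. At day 0 the members lay close to their control level. Of 92 members compared, 0 were 2-fold higher and 1, Cox6a2, was 2-fold lower. Among all 19270 genes compared, 18.4% were 2-fold higher and 4.2% were 2-fold lower, and among bright genes 5.63% and 3.1%. The median log2 ratio of the members was -0.08, with 33 members above 0 and 58 below, against -0.02 and 48.0% above 0 for bright genes and -0.06 for the brightest 20%. Within 1.5-fold lay 90 of the 92 members (97.8%), against 77.5% of bright genes and 87.5% of the brightest 20%. At day 2, after 2 days of induction, 0 of 93 members were 2-fold higher and 0 were 2-fold lower, against 2.89% and 4.1% of all 18561 genes compared and 3.02% and 3.61% of bright genes. The median was -0.02, with 44 members above 0, against 0.04 and 55.6% above 0 for bright genes and 0.05 for the brightest 20%. Within 1.5-fold lay 92 of the 93 members (98.9%), against 82.7% of bright genes and 86.2% of the brightest 20%. The median of the members stood below that of bright genes by 0.04 to 0.10 at day 2 under every setting tried. At day 0 it stood between 0.08 below and 0.003 above.

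**Figure D1:**
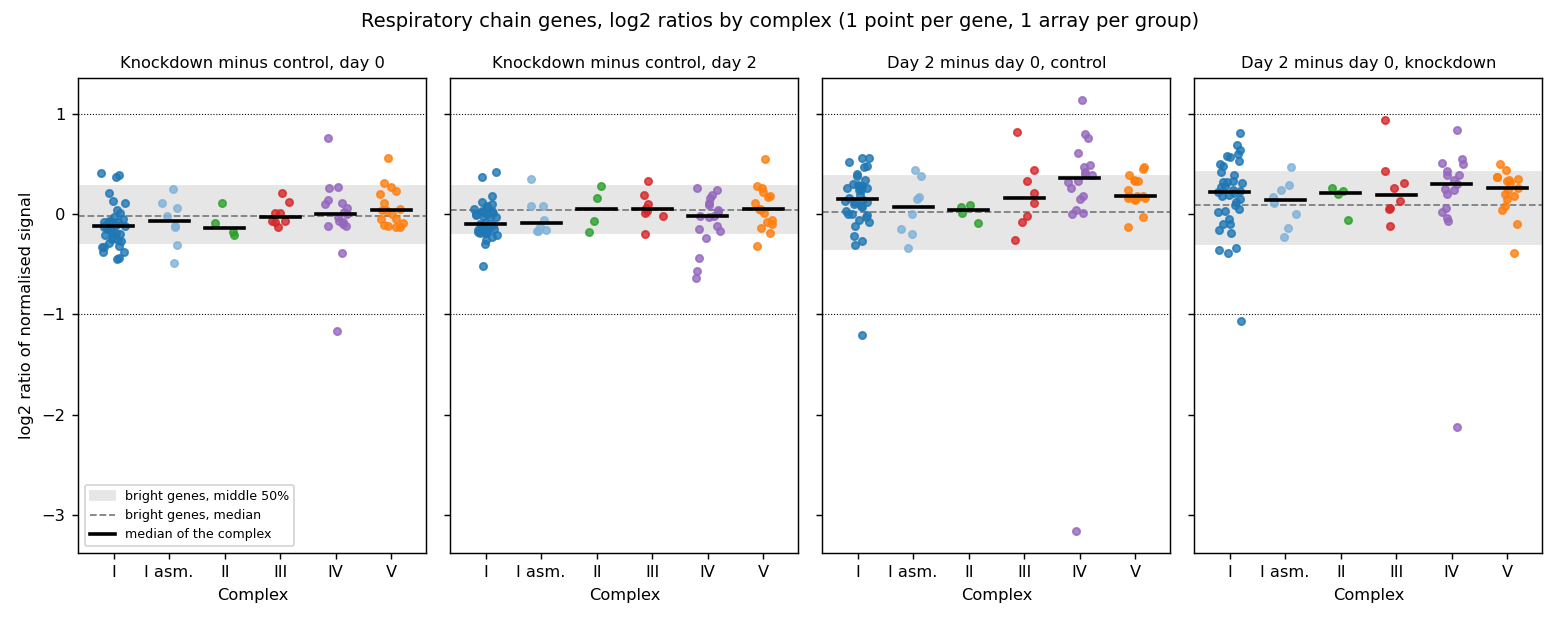
Log2 ratio of the normalised signal for each member (points, 1 per gene), by complex, in the 4 comparisons; black bars are the median of each complex, the grey band and dashed line the middle 50% and median of bright genes, and dotted lines mark 2-fold. Most members lie inside the 2-fold lines, and Cox6a2 is the point farthest below 0 at day 0 and in both time courses.

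Complex I, the NADH dehydrogenase that is the main entry of electrons, had most of its members on the lower side in knockdown cells. At day 0, 30 of 38 complex I members were below 0, with a median of -0.13, and at day 2, 24 of 38, with a median of -0.10. Over all settings the complex I median stayed between -0.17 and -0.06 at day 0 and between -0.17 and -0.05 at day 2. Complex V had medians of 0.04 and 0.05, with 9 and 11 of 17 members above 0, and its median changed sign with the scaling at both days. Complex III had medians of -0.03 and 0.04, complex IV of 0.00 and -0.02, and complex II of -0.14 and 0.05, the last over 4 genes. The medians of complex III at both days, complex IV at day 0 and complex II at day 2 also changed sign with the setting. These medians are all smaller than a 1.2-fold difference, and with 1 array per group no test says whether complexes differ.

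Ndufs1 and Ndufv1 are catalytic core subunits of complex I, which carry iron-sulfur clusters and the NADH site. Ndufs1 had normalised signals of 15.5, 15.7, 16.9 and 18.1, with knockdown log2 ratios of 0.01 at day 0 and 0.10 at day 2. Ndufv1 had 42.1, 43.3, 49.7 and 50.7, with ratios of 0.04 and 0.03. Both lay close to control at both days.

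The members with the largest differences of like sign at both days were accessory subunits of complex I and a stalk subunit of complex V. Atp5pb, the b subunit of the peripheral stalk that holds the ATP synthase head still, had normalised signals of 30.6, 44.9, 33.9 and 49.6. Both knockdown arrays were above both control arrays, by log2 ratios of 0.55 (1.47-fold) at day 0 and 0.55 (1.46-fold) at day 2, and a second probe gave 0.57 and 0.46. Ndufb5, an accessory subunit of the membrane arm of complex I, had signals of 25.3, 33.4, 30.6 and 39.4, with ratios of 0.40 and 0.37 and 0.43 and 0.53 on a second probe. Ndufc1, another accessory subunit, had 39.2, 50.5, 46.7 and 62.6, with ratios of 0.37 and 0.42. For these 3 genes the knockdown arrays held the highest values of both days. Ndufb2, also of the membrane arm, went the other way, with 35.3, 25.8, 35.9 and 24.98 and ratios of -0.45 and -0.52. Its knockdown arrays were both below its control arrays, and day made little difference, with time course ratios of 0.03 and -0.05. None of these 4 genes reached 1.5-fold, and each kept its direction at both days under every setting.

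The comparisons at day 0 and day 2 share no array. Across the 92 members measured in both, 66 (71.7%) had the same sign at both days, against 64.4% of bright genes. With a log2 size of 0.2, chosen after the values were seen, 13 members were higher at day 0 and 11 at day 2, where 30.1% and 31.6% of bright genes were, and 6 were so at both (46.2% and 54.5% of each list). Those 6 were Ndufb5, Ndufc1, Ndufaf4, Uqcrh, Atp5j2 and Atp5pb. Lower by that size were 18 members at day 0 and 10 at day 2, against 32.5% and 24.2% of bright genes, with 4 in common (22.2% and 40% of each list), among them Ndufa4l2, Ndufb2 and Cox5b. The corresponding shares of the lists of bright genes were 48% and 45.7% on the higher side and 45.4% and 61% on the lower side. The difference between these shares and those of the members was not tested.

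**Figure D2:**
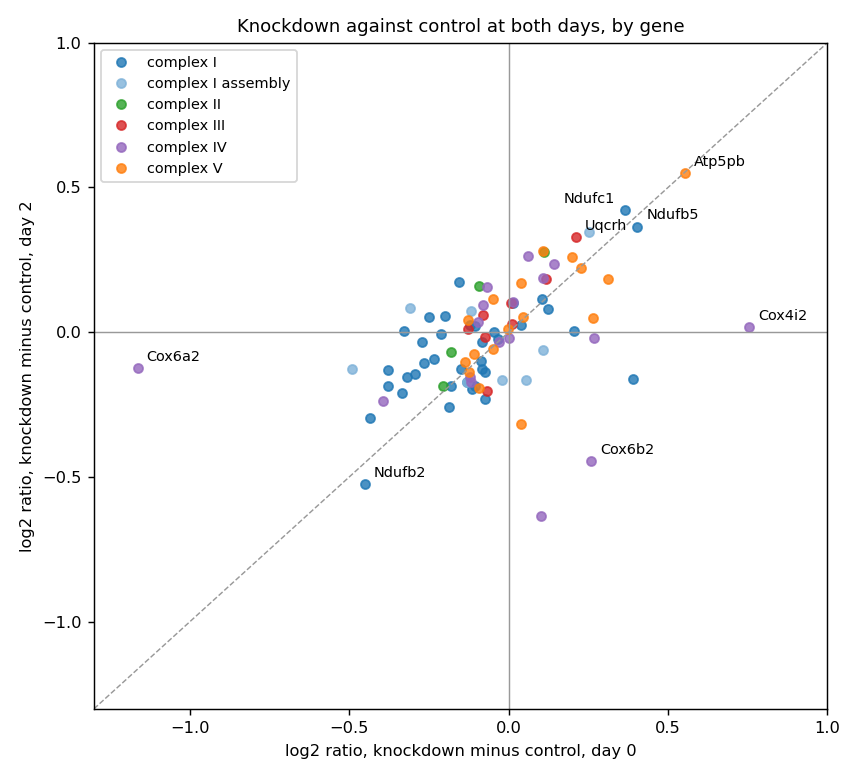
Log2 ratio of knockdown over control at day 0 (horizontal) and at day 2 (vertical), 1 point per member, coloured by complex, with the dashed line of equal ratios. Atp5pb, Ndufb5 and Ndufc1 lie up the line, Ndufb2 lies down it, and Cox6a2 and Cox4i2 lie far from 0 at day 0 and near 0 at day 2, with day 2 ratios of -0.12 and 0.02.

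The second question was what 2 days of adipogenic induction did to these genes. In control cells the median of 93 members was 0.18 (1.13-fold), with 71 above 0 and 21 below. Bright genes had a median of 0.02 and 51.9% above 0, and the brightest 20% a median of 0.03. In knockdown cells the median of 92 members was 0.24 (1.18-fold), with 73 above 0 and 19 below, against 0.08 and 56.6% for bright genes and a median of 0.16 for the brightest 20%. Fat cell markers differed along with the day and with the knockdown: 5 of them had summed normalised signals of 0.698, 3.52, 7.06 and 38.7, mostly from Fabp4, the fatty acid carrier of fat cells. Their median day 2 ratio was 2.45 in control cells, with 5 of 5 past 2-fold, and 0.49 in knockdown cells, with 1 of 5. In knockdown against control cells their median was 1.95 at day 0, with 5 of 5 above 0. At day 2 it was -0.77, with 4 of 5 below 0 and 1 above, so the summed signal does not stand for the list. Of the 5 markers, 4 were dim, and their part in the respiratory chain values was not tested. By the 2-fold call, control cells had 1 member higher, Cox6b2, and 2 lower, Cox6a2 and Ndufa4l2. Among all 18657 genes compared in control cells, 20.0% were 2-fold higher and 8.15% lower, and among bright genes 7.6% and 7.75%. Knockdown cells had 0 members higher and the same 2 lower, against 5.01% and 9.07% of 19198 genes and 6.17% and 9.22% of bright genes. The small upward shift depended on the scaling: the median of the members was 0.03 in control and 0.06 in knockdown cells after quantile normalization, and 0.05 and 0.02 after cyclic loess, with 52 to 58 members above 0. Under every setting it stayed above the median of bright genes, by 0.05 to 0.17 in control and by 0.02 to 0.18 in knockdown cells.

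The time courses of control and knockdown cells share no array, and 78 of 92 members (84.8%) had the same sign in both, against 75.5% of bright genes. Higher at day 2 by a log2 ratio of at least 0.2 were 41 members in control and 51 in knockdown cells, against 36.5% and 40.7% of bright genes, and 38 were so in both, which is 92.7% and 74.5% of each list, against 70.3% and 63.1% for bright genes. On the lower side 7 and 7 members passed that size, against 33.7% and 29.9% of bright genes, with 4 in common (57.1% of each), namely Ndufa4l2, Ndufa9, Ndufs8 and Cox6a2. Complex IV had the highest median in control cells, 0.36 over 18 genes, and 0.30 in knockdown cells. All of its 11 widely expressed structural subunits were above 0 in control cells and 10 in knockdown cells under the main scaling. Over the settings the complex IV median in control cells went as low as 0.03, below the lowest complex I median of 0.06, so its place as the highest depends on the setting. Complex V had 15 of 17 members above 0 in both, with medians of 0.18 and 0.26, complex I had medians of 0.14 and 0.22, complex III of 0.16 and 0.19, and complex II of 0.04 and 0.21. The complex II median in both kinds of cell and the complex III median in knockdown cells went below 0 under some setting, and the others stayed above 0.

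**Figure D3:**
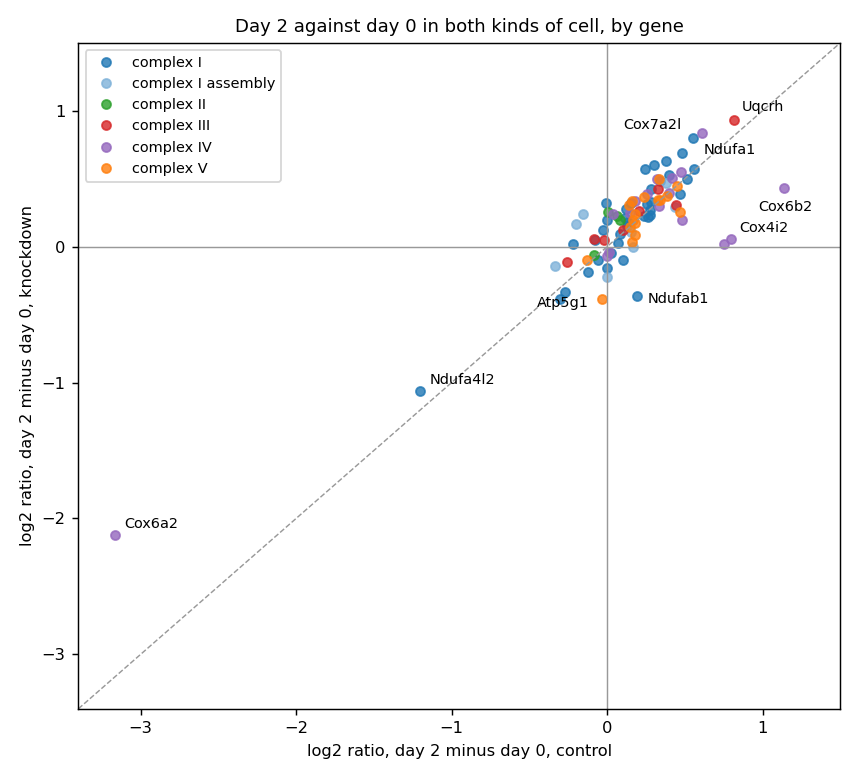
Log2 ratio of day 2 over day 0 in control cells (horizontal) and knockdown cells (vertical), 1 point per member, coloured by complex, with the dashed line of equal ratios. Most points form a cloud just above 0 on both axes, Uqcrh, Cox7a2l and Ndufa1 lead it, and Cox6a2 and Ndufa4l2 lie far below.

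Among widely expressed members, Uqcrh had the highest ratio at day 2 in both kinds of cell. It encodes the hinge protein of complex III, which sits at cytochrome c1 where cytochrome c docks. Its normalised signals were 49.7, 57.5, 87.5 and 110, so both day 2 arrays were above both day 0 arrays, by 0.82 (1.76-fold) in control and 0.93 (1.91-fold) in knockdown cells. A second Uqcrh probe gave 0.75 and 0.97. Cox7a2l, which joins complexes III and IV into supercomplexes, had 96.2, 91.7, 147 and 164, with ratios of 0.61 (1.53-fold) and 0.84 (1.78-fold). Ndufa1, a small accessory subunit needed for complex I assembly, had 37.8, 29.1, 55.5 and 50.7, with ratios of 0.55 and 0.80. Ndufa4 had 49.2, 42.5, 68.7 and 68.4, with ratios of 0.48 and 0.69. For these 4 genes the day 2 arrays were above the day 0 arrays without overlap. Over the settings the Cox7a2l ratio ranged from 0.20 to 0.67 in control cells, and that of Uqcrh from 0.58 to 0.88.

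Other widely expressed nuclear subunits of complex IV had smaller ratios, whose size and in part direction depended on the scaling. Cox4i1, the common form of subunit 4, had signals of 86.2, 84.5, 113 and 111, with day 2 ratios of 0.40 and 0.39. Cox8a, the common form of the smallest subunit, had 98.7, 93.4, 123 and 132, with ratios of 0.32 and 0.49. Cox5a and Cox5b, of the matrix side of the complex, gave 0.33 and 0.30, and 0.18 and 0.34. In all 4 genes the day 2 signal exceeded the day 0 signal of the same cells under the main scaling. Over the settings the control ratio reached -0.0027 for Cox4i1 and -0.09 for Cox8a, while the lowest was 0.09 for Cox5a and 0.03 for Cox5b. Cox5b was lower in knockdown cells at both days, with signals of 41.5, 31.6, 47.1 and 39.9 and knockdown ratios of -0.39 and -0.24. Cox7a2, the common form of subunit 7a, had 34.5, 35.9, 35.4 and 42.4, with day 2 ratios of 0.04 and 0.24, the first of which went down to -0.08.

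The members past 2-fold were alternative isoforms of low signal, not widely expressed subunits. Cox6a2 is the heart and skeletal muscle form of subunit 6a, and Cox6a1 the form of most other tissues. Cox6a2 had normalised signals of 1.79, 0.800, 0.2002 and 0.184. The control day 0 array was highest and the day 2 arrays were lowest and close to each other. The day 2 ratio was -3.16 (8.95-fold lower) in control and -2.12 (4.36-fold lower) in knockdown cells, and the knockdown ratio was -1.16 (2.24-fold lower) at day 0 and -0.12 at day 2. The knockdown time course uses arrays of 1 slide. Both time course calls held under every setting, with ranges of -3.49 to -2.94 and -2.36 to -2.0, and the day 0 knockdown ratio was -0.98, short of 2-fold, after normexp background correction. Cox6a1 moved little beside it, with 174, 188, 242 and 275 and day 2 ratios of 0.47 and 0.55. A list of 6 muscle markers had summed normalised signals of 0.436, 1.21, 0.343 and 0.416, of which 3 of 6 passed the background mark on the first array and 6 of 6 on each of the others. All 6 are dim. Against day 0 they stood above 0 at day 2 in 5 of 6 cases in control cells (median 0.48) and in 2 of 6 in knockdown cells (median -0.11), and in knockdown against control cells at day 0 in 6 of 6 (median 1.47). In knockdown cells 4 of 6 were below 0 at day 2. Ratios of markers that missed the background mark on the control day 0 array are bounded by a floor. Cardiac troponin T (Tnnt2), singled out after its values were seen as the 1 marker below 0 in control cells, had 0.347, 0.571, 0.026 and 0.044. The part of muscle-type RNA in the Cox6a2 values was not tested.

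Cox6b2 is the testis form of subunit 6b, and Cox6b1 the common form. Cox6b2 had signals of 0.289, 0.346, 0.636 and 0.467, highest on the control day 2 array. Its day 2 ratio was 1.14 (2.20-fold) in control cells and 0.43 in knockdown cells, and after quantile normalization and cyclic loess the control value was 0.88 and 0.76, below 2-fold. Its knockdown ratio was 0.26 at day 0, where it ranged down to -0.11 over the settings, and -0.44 at day 2. Cox6b1 had time course ratios of 0.01 and -0.04. Of 2 germ cell markers, the summed signals were 0.288, 0.0884, 3.19 and 0.161, highest on the control day 2 array. Well above background were 1, 2, 1 and 1 of the 2, so the control day 2 sum rests on 1 detected gene. The part of germ cell RNA in the Cox6b2 values was not tested.

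Cox4i2, the lung and low-oxygen form of subunit 4, had signals of 0.483, 0.814, 0.838 and 0.848. The control day 0 array was low and the other 3 arrays were alike. The knockdown ratio was accordingly 0.75 (1.69-fold) at day 0 and 0.02 at day 2, and the day 2 ratio 0.79 in control and 0.06 in knockdown cells. The low array is the 1 from the separate slide, and slide and group cannot be told apart for it. Cox7a1, the muscle and heart form of subunit 7a that also marks brown fat, had 0.234, 0.258, 0.260 and 0.306, with every ratio between 0.14 and 0.24 under the main scaling. Under other settings it went down to -0.40 in the control time course and to -0.39 for knockdown against control at day 0.

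**Figure D4:**
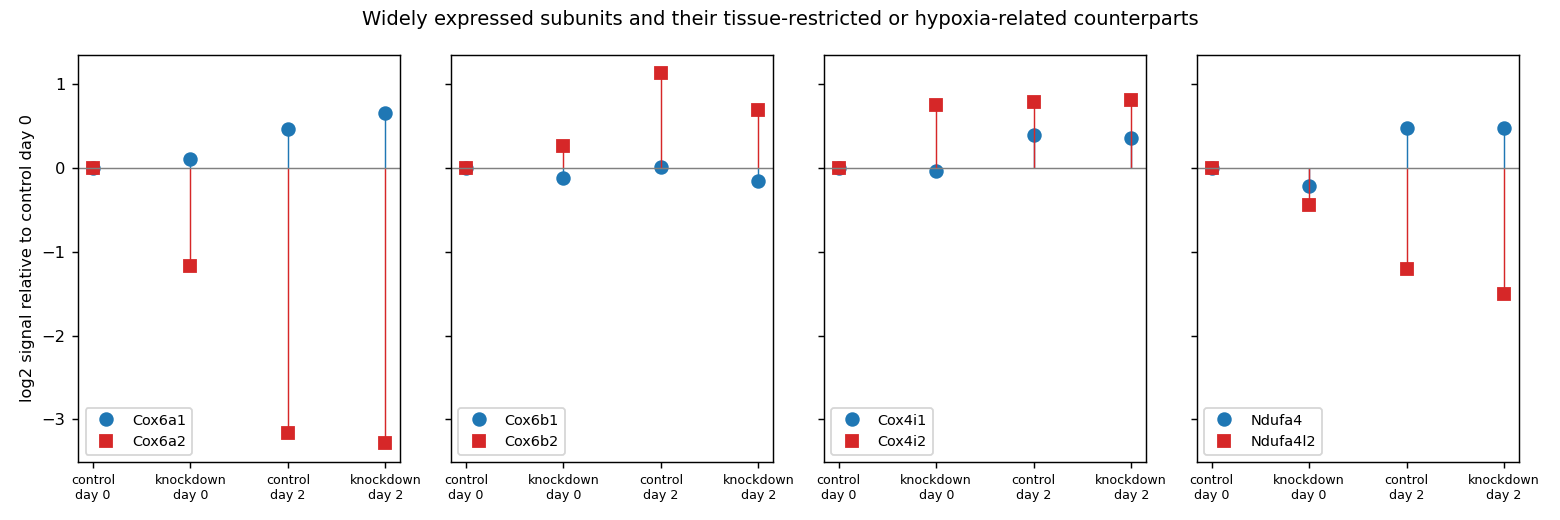
Log2 normalised signal on each array relative to the control day 0 array, for a widely expressed subunit (blue circles) and its tissue-restricted or low-oxygen counterpart (red squares), 1 array per point. Cox6a2 and Ndufa4l2 drop at day 2 while Cox6a1 and Ndufa4 are higher there, and Cox4i2 is lowest on the control day 0 array.

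Ndufa4l2, the low-oxygen relative of Ndufa4, was dim but well above background on all arrays, with signals of 0.256, 0.189, 0.111 and 0.0906. Both day 2 arrays were below both day 0 arrays, by -1.20 (2.30-fold lower) in control and -1.06 (2.09-fold lower) in knockdown cells. After normexp background correction these ratios were -0.96 and -0.62, short of 2-fold. The spot error of dim probes is also wider, with SDs of 0.41 and 0.271 for these ratios. Cox8b, the muscle and brown fat form of subunit 8, was near background, with 0.0217, 0.0233, 0.0365 and 0.0235 and a knockdown ratio of -0.63 at day 2, which shrank to -0.07 under another setting. Cox7b2 and Cox8c, testis forms, were well above background on only some arrays.

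Complex II, which is also the succinate dehydrogenase of the citric acid cycle, has no mitochondrially encoded subunit. Its flavoprotein Sdha had signals of 27.0, 23.4, 25.5 and 22.4, lower in both knockdown cultures by -0.21 and -0.18. The iron-sulfur subunit Sdhb had 36.2, 33.9, 36.3 and 40.5, and the membrane anchor Sdhc had 28.4, 25.03, 30.1 and 28.7. The other anchor, Sdhd, had 27.9, 30.1, 29.1 and 35.3, higher in both knockdown cultures by 0.11 and 0.28. The 4 subunits of the complex therefore did not share a direction in knockdown cells.

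In complex III, the core proteins Uqcrc1 and Uqcrc2 and the Rieske iron-sulfur protein Uqcrfs1 had small ratios. Uqcrc1 had 11.3, 10.6, 9.42 and 9.82, Uqcrc2 had 23.5, 25.5, 23.2 and 26.4, and Uqcrfs1 had 22.1, 22.2, 23.7 and 24.2. Their day 2 ratios lay between -0.26 and 0.12, in contrast to Uqcrh of the same complex.

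In complex V, the catalytic head subunits alpha (Atp5a1) and beta (Atp5b) and the central shaft gamma (Atp5c1) had higher signal at day 2 in both kinds of cell under the main scaling. Over the settings this held for Atp5a1 alone of the 3, since the Atp5b ratios went down to -0.25 and -0.27 and that of Atp5c1 in control cells to -0.04. Atp5a1 had 67.3, 61.8, 87.8 and 79.8, with day 2 ratios of 0.38 and 0.37. Atp5b had 180, 174, 204 and 196, with ratios of 0.18 and 0.17, and Atp5c1 had 46.2, 49.8, 51.6 and 62.7, with ratios of 0.16 and 0.33. Atp5g1, Atp5g2 and Atp5g3 encode the same mature c subunit of the rotor and did not move alike. Atp5g1 had 59.4, 61.1, 58.1 and 46.6, lowest on the knockdown day 2 array, with day 2 ratios of -0.03 and -0.39. Atp5g2 had 171, 176, 201 and 226, with ratios of 0.24 and 0.36, and Atp5g3 had 76.7, 92.1, 106 and 110, with ratios of 0.47 and 0.26. In knockdown cells Atp5g1 was below its day 0 signal under every setting, and Atp5g2 and Atp5g3 were above it under the main scaling but reached -0.06 and -0.10 under others.

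The 8 assembly factors of complex I had medians of -0.07 and -0.09 in knockdown against control cells and 0.07 and 0.14 at day 2 against day 0. Ndufaf5, which modifies the core subunit Ndufs7, had signals of 0.642, 0.456, 0.559 and 0.512, with a knockdown ratio of -0.49 at day 0 and -0.13 at day 2. A second, dimmer Ndufaf5 probe gave -1.69 and 0.14, so the probes differ in size at day 0 and in sign at day 2, and the median of both passed 2-fold at day 0 (-1.09). Ndufaf8, the partner of Ndufaf5, had 2.72, 2.51, 2.16 and 2.27, with day 2 ratios of -0.34 and -0.14.

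The difference between the knockdown ratios of the days asks whether knockdown and control cells moved apart during induction. Its median over 91 members was 0.05, against 0.08 for bright genes, and the sign of the member median turned to -0.06 after cyclic loess. By the 2-fold size 1 member was higher, Cox6a2 at 1.04, and 0 were lower, against 2.9% and 16.9% of 15465 genes and 2.66% and 6.63% of bright genes. Within 1.5-fold lay 95.6% of the members and 77.5% of bright genes. The next sizes were -0.74 for Cox4i2, -0.70 for Cox6b2 and -0.55 for Ndufab1, the mitochondrial acyl carrier protein, beside -0.74 for dim Cox8b.

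A total of 24 members had more than 1 probe. The largest gap between probes of a gene had a median of 0.06 for knockdown against control at day 0, 0.08 at day 2, and 0.12 and 0.13 for the time courses. It was at most 0.2 in 21, 21, 16 and 16 of the 24. Several members have processed pseudogenes of near-identical sequence, which a probe can also read, and signals of such genes are uncertain to that extent. The array's probes matched 0 of 2 mitochondrially encoded subunit genes of the list, so those were not analysed here.

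The members holding an NRF1 or ETS core were compared with the other members as a description. The 20 with either core had medians of -0.04 and 0.05 for knockdown against control at day 0 and day 2, and the 56 without had -0.08 and -0.02. At day 2 against day 0 the medians were 0.16 and 0.27 with a core and 0.22 and 0.24 without. Members with and without a core thus had medians close to each other in all 4 comparisons.

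Single genes that act with the respiratory chain had differences larger than those of its widely expressed subunits, while several lists lay as close together as the members. The coactivator Ppargc1a, a regulator of mitochondrial biogenesis, had signals of 0.446, 0.695, 0.306 and 3.66, and was 11.97-fold higher on the knockdown array of day 2 than on its control. On the same arrays the member median was -0.02. Over 15 biogenesis regulators the knockdown medians were 0.02 at day 0 and 0.08 at day 2. The transcription factors Nrf1 and Gabpa themselves had knockdown ratios of 0.22 and 0.29, and -0.18 and 0.08, and Tfam, which packages mitochondrial DNA, had 0.06 and 0.03. At day 2 against day 0 the list medians were 0.25 and 0.23, and Nrip1, a corepressor of oxidative genes, was 4.96-fold and 5.86-fold higher in control and knockdown cells. Of the 15, 1 was 2-fold higher and 1 lower in control cells, against 7.6% and 7.75% of bright genes. In knockdown cells 3 were higher and 1 lower, against 6.17% and 9.22%. The lowest ratios in the list were -1.07 and -2.15. The mitochondrial transcription factor Tfb2m was 1.89-fold and 2.01-fold higher, with a log2 ratio in knockdown cells that ranged from 0.76 to 1.01 over the settings.

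Assembly factors of complex IV had medians of -0.13 at day 0 and -0.19 at day 2 in knockdown against control cells over 17 genes, with 10 and 12 below 0, and the medians were below 0 under every setting. Coa3, which stabilises the newly made Cox1 protein, had signals of 28.0, 12.5, 24.7 and 13.6, so both knockdown arrays were below both control arrays. Its log2 ratios for day 0 and day 2 were -1.16 (2.24-fold) and -0.86 (1.81-fold). The day 0 ratio reached only -0.98 under the setting farthest from it. Sco2, a copper chaperone of complex IV, had 5.18, 3.44, 4.40 and 2.97, with ratios of -0.59 and -0.57, and Surf1, another assembly factor, had ratios of -0.60 and -0.31. Cox20 was 2.07-fold lower at day 2 than at day 0 in knockdown cells.

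Genes of pyruvate entry had knockdown medians of -0.14 and -0.16 over 11 genes, with 8 below 0 at each day. Above 0 were 27.3% of them at each day, against 48.0% and 55.6% of bright genes. Among them Mpc2, a subunit of the mitochondrial pyruvate carrier, had 21.0, 12.1, 41.6 and 11.7, and its knockdown ratio at day 2 was -1.83 (3.55-fold). Its control signal was 1.98-fold higher at day 2 than at day 0, and its knockdown signals of both days differed by a ratio of -0.05. Pdk1, a kinase that switches off pyruvate dehydrogenase, had 2.30, 4.85, 3.05 and 5.38, 2.11-fold higher at day 0 and 1.76-fold at day 2. Pdk4 was 2.79-fold and 2.19-fold higher at day 2 than at day 0 in control and knockdown cells, and Pdk2 was 2.04-fold lower in control cells. The citric acid cycle list had knockdown medians of 0.03 and -0.04 over 13 genes, with Sucla2, a subunit of succinyl-CoA ligase, at -0.55 and -0.63, and time course medians of 0.14 in both kinds of cell. Its citrate synthase, Cs, had ratios of -0.10 and 0.22.

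Low-oxygen genes, a list of 8 that includes Ndufa4l2, had knockdown medians of 0.29 and 0.30. At day 0 the list was split, with 4 genes above 0 and 4 below and its middle 50% between -0.34 and 1.10. The day 0 median therefore does not stand for a shared shift. At day 2, 6 were above 0 and 2 below, where 55.6% of bright genes were above 0. Bnip3, a mitophagy receptor of the outer membrane, had 13.8, 34.5, 26.9 and 66.6, with both knockdown arrays 2.51-fold and 2.48-fold above the control array of the same day. Higd1a, a complex IV binding protein, had knockdown ratios of 1.16 (2.23-fold) and 0.59 at day 0 and day 2, and Vegfa, the growth factor of blood vessels, had -0.18 and 1.17 (2.25-fold). The members Ndufa4l2 and Cox4i2, themselves known as low-oxygen genes, gave -0.44 and 0.75 at day 0 and -0.30 and 0.02 at day 2. At day 2 Ndufa4l2 was thus on the other side from Bnip3 and Cox4i2 was close to 0.

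The mitophagy and fusion list had knockdown medians of 0.04 and 0.24 over 8 genes, with Mfn1, a mitofusin, 1.74-fold and 1.98-fold higher. Cytochrome c and the other complex III genes had 0.02 and 0.05 over 8 genes, with Cyc1, cytochrome c1, at 0.42 and 0.35. Import genes gave 0.18 and -0.03 over 11 genes, and 78 mitochondrial ribosome genes gave 0.00 and -0.06. Factors of complex II and V assembly and regulation gave -0.01 and -0.01 over 8 genes, with time course medians of 0.34 and 0.32, and Sdhaf1 at 0.79 and 0.95. In the list of uncoupling proteins and adenine nucleotide carriers, Ucp2 was 3.77-fold and 2.69-fold higher at day 2 in control and knockdown cells and Ucp3 4.29-fold and 2.77-fold, although the Ucp3 ratio in control cells, 2.10, ranged down to 0.81 over the settings, while Ucp1, which defines thermogenic fat cells, was well above background on the knockdown day 0 array alone.

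**Figure D5:**
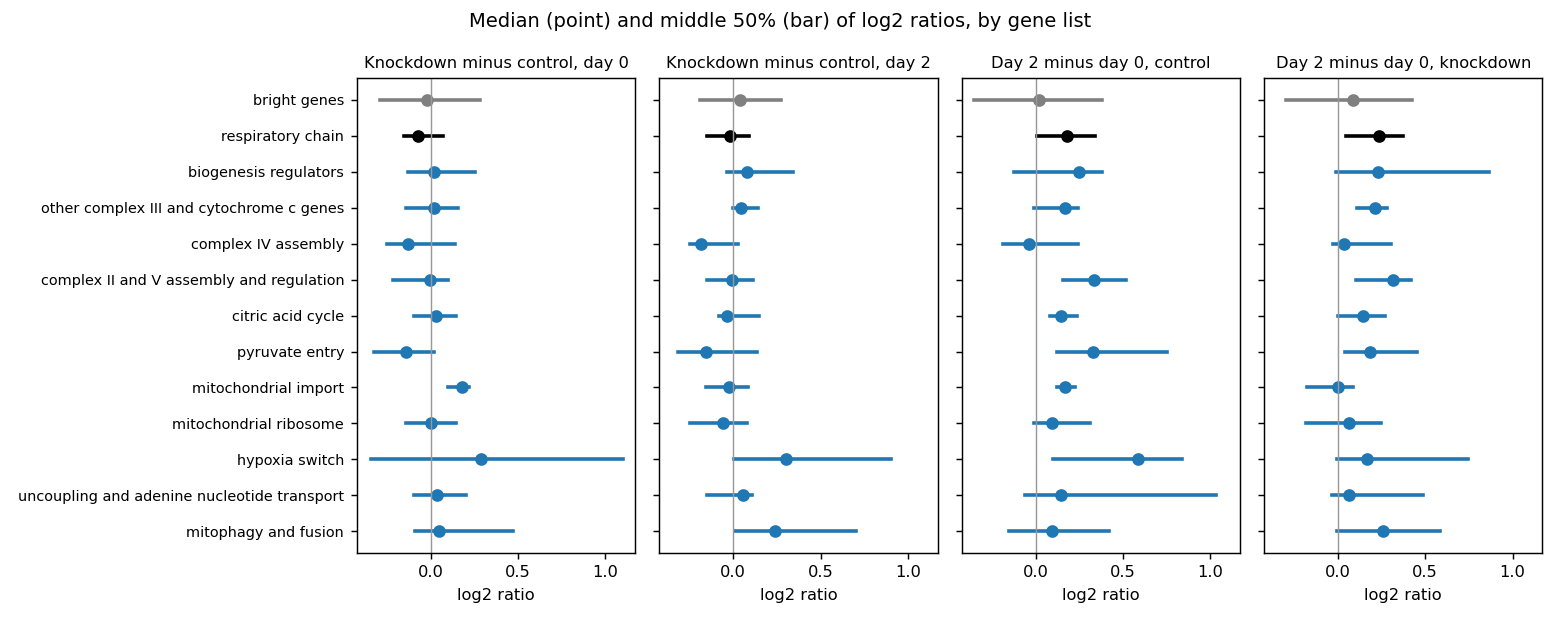
Median (point) and middle 50% (bar) of the log2 ratios of each gene list in the 4 comparisons, with bright genes in grey and the respiratory chain members in black. The members' bars are narrower than those of bright genes in every panel. The low-oxygen list (hypoxia switch) has the highest medians in the panels of knockdown against control, but its bar spans 0 at day 0.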

How the data were processed

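Total RNA of 4 cultures was read on Agilent mouse arrays of design 028005, labelled with Cy3. Per the file headers, Feature Extraction 10.7.3.1 subtracted a spatial background and detrended the signals on 3 arrays but not on the knockdown day 0 array. The deposited values are these processed signals, a linear intensity with no normalization across arrays.

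Control and outlier spots were left out, log2 intensity minus the array's 75th percentile was averaged over repeat spots, and 27656 of 55681 probes were named by RefSeq accession (GRCm38.p6). The probe with the highest mean stands for a gene. Genes well above background on at least 1 array of a comparison were compared; where only 1 was, the other side was set to a floor. Signals of different probes are not comparable as amounts. No p-value was computed. The members and lists were chosen with earlier results of these data known. Named were members past 2-fold, the 3 largest per comparison and direction, and 28 listed subunits, among them tissue-restricted and low-oxygen isoforms. Not every one is reported here. On simulated data (20956 genes), for knockdown against control at both days, 100 of 100 genes made 3-fold higher and 100 of 100 made 4-fold lower were called, and 0 unchanged bright genes. Since these sizes exceed the 2-fold call, this checks the calculation only. It says nothing of smaller differences or of the spread between cultures. Other settings were normexp (offset 50), no detrending, quantile and cyclic loess (3 iterations) normalization, other scaling and filters, all probes, and 1.5-fold. Python 3.11.15, numpy 2.4.6, pandas 2.3.3, matplotlib 3.10.9, R 4.3.3 and limma 3.58.1 were used.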

Additional observations from a re-analysis of the deposited data

Results flagged for a closer look

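Several members went in opposite directions in the paired comparisons, each by more than 2 of the median SDs of repeat spots. Those SDs come from bright probes printed 10 times, whereas the members named here had 1 spot per array. For knockdown against control the 95th percentile of the SD was 0.142 at day 0 and 0.089 at day 2. Both ratios of Ndufaf8 below are smaller than that, and so is the day 2 ratio of Ndufaf3. The difference was not tested, and with 1 array per group culture spread is unknown. For knockdown against control, the log2 ratio at day 0 and day 2 was -0.16 and 0.18 for Ndufa6, an accessory subunit of complex I, and 0.39 and -0.16 for Ndufab1, the acyl carrier protein. It was -0.31 and 0.08 for Ndufaf3 and -0.12 and 0.07 for Ndufaf8, both assembly factors of complex I, and 0.26 and -0.44 for Cox6b2, the testis form of subunit 6b, whose day 0 value ranged down to -0.11 over the settings. For day 2 against day 0, the log2 ratio in control and in knockdown cells was 0.19 and -0.36 for Ndufab1, -0.15 and 0.24 for Ndufaf3, and -0.20 and 0.17 for Ndufaf5. The control day 0 array, on its own slide, enters every one of these pairs.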

How the results depend on the processing

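Of 60 alternative medians over the members, 51 stayed within 1 SD of the repeat spots of the reported value and 9 moved further. No ratio of a called gene reversed. The 60 include the 1.5-fold setting, which cannot change a median, and the setting with outlier spots kept, which gave the same medians. The count of 51 therefore overstates how stable the medians are. All 9 that moved came from quantile normalization, cyclic loess and the scaling to probes detected on all arrays. After quantile normalization the member median was -0.0824 for knockdown against control at day 2, 0.0335 for the control and 0.0582 for the knockdown time course. After cyclic loess these were -0.0904, 0.0502 and 0.0186, and the difference between the days was -0.0573. Scaling to the 75th percentile of probes detected on all arrays gave -0.0129 at day 0 and -0.0357 for the difference. The scaling moved the median of all genes too, from 0.12 at day 0 and 0.19 in the control time course to 0.00 after quantile normalization, so small shifts are relative. At 1.5-fold, 1 member was higher and 1 lower at day 0, against 12.9% and 9.54% of bright genes. At day 2 these counts were 0 and 1, against 9.33% and 8.0%. They were 5 and 2 in the control time course, against 16.1% and 16.2%, and 6 and 2 in the knockdown time course, against 16.4% and 16.1%. Members called 2-fold lower at day 0 numbered 2 after quantile, 3 after cyclic loess, 2 with all probes of a gene and 0 after normexp. With no filter on dim probes, 3 were higher in the control time course and 1 in the knockdown one. The 2-fold shares of all or bright genes under these other settings are not given here, so these counts describe the members only. Without assembly factors and tissue-restricted isoforms, 0 of 77 members were called in any comparison. No paired analysis was possible because the labels give no replicate numbers that pair arrays; a fit of knockdown and day without interaction, which would leave 1 residual degree of freedom, was not run. Dim isoforms are limited by signal over background, and no value here carries the spread between cultures.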
